A study of Mus musculus with 4 samples.

Results

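RGS proteins and the subunits of heterotrimeric G proteins were examined in naive mouse embryonic stem cells (nESC) and in epiblast-like stem cells (EpiLSC). Members were the rows whose gene symbol begins with Rgs and a digit, or names a G protein alpha, beta or gamma subunit of the Gna, Gnb and Gng series, with Gnas left out. Of 53 annotated symbols of this form 48 had a row among the 20296 genes of the comparison. The other 5, Gnat3, Rgs1, Rgs13, Rgs18 and Rgs21, were not analysed here. The members comprised 17 RGS genes, 2 genes for anchors of RGS proteins, 14 alpha, 5 beta and 10 gamma subunit genes. The choice rests on names alone, but the family was proposed with results of this comparison known. All values below are therefore descriptions of that comparison, and no test of the family as a whole was made.

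The nESC grew in 2i/LIF medium, a pair of kinase inhibitors with the cytokine LIF, which keeps them naive. EpiLSC were derived from nESC in N2B27 medium with activin A at 20 ng/ml and bFGF at 12 ng/ml and were collected on day 3. Each state had 2 samples, 1 from the mouse embryonic stem cell line R1 and 1 from the line E14TG2a, here E14, so all samples come from these 2 lines and each line was sampled 1 time per state. Ribosomal RNA was depleted before strand-specific libraries were made from total RNA. The values came from a comparison over all 4 samples, with 1 mean, 1 fold change and 1 standard error (SE) per gene, so levels and spreads of single samples were not analysed here. State and medium changed together and cannot be told apart. In bulk RNA, fewer cells of a type and less RNA per cell cannot be told apart either.

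A heterotrimeric G protein couples a seven-helix receptor to enzymes and channels inside the cell. The activated receptor makes the alpha subunit exchange GDP for GTP and part from the beta-gamma dimer, and both parts then signal. RGS (regulator of G protein signalling) proteins bind the GTP-loaded alpha subunit and speed up GTP hydrolysis, which ends the signal. Alpha subunits fall into the Gs, Gi/o, Gq/11 and G12/13 classes, which respectively stimulate adenylyl cyclase, inhibit it, activate phospholipase C beta and activate exchange factors of small GTPases. RGS genes fall into the R4, R7, R12 and RZ classes by their sequence.

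No header line says which state the fold changes refer to. Positive values were read as higher in EpiLSC because 6 of 6 epiblast-like markers, among them Fgf5 (8.40, SE 0.76) and Otx2 (3.90, SE 0.66), were positive as given in the authors' deposited table. All 7 naive markers, among them Zfp42 (-6.22, SE 0.62) and Klf4 (-6.29, SE 0.68), were negative as given in the authors' deposited table. Of 4 factors of both pluripotent states, Pou5f1 (-0.19, SE 0.76) and Sall4 (-0.04, SE 0.78) were not called, and Nanog (-2.25, SE 0.75) and Sox2 (-3.35, SE 0.64) fell, as given in the authors' deposited table. Genes with an adjusted p under 0.05 there (Wald test of DESeq2, adjusted over 16361 genes by the method of Benjamini and Hochberg) are called higher or lower. For each gene a level per state was computed from its mean normalized count and fold change, on the assumption that the 4 libraries weigh equally. These levels carry no SD.

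Of the 48 members 13 were called higher in EpiLSC and 0 lower, by the Wald test of DESeq2 as given in the authors' deposited table. Fold changes were positive for 37 members and negative for 11, none of the 11 called. Among all tested genes 7.67% were called higher and 6.23% lower, and nothing is read from the difference because the family was chosen on this comparison. At an unadjusted p under 0.05 the members numbered 15 higher and 2 lower (DESeq2 Wald test). The 13 were the RGS genes Rgs2, Rgs4, Rgs16, Rgs11, Rgs10, Rgs12 and Rgs17, the anchor gene Rgs7bp, the alpha subunit genes Gnao1, Gnaz and Gnat2, and the gamma subunit genes Gng3 and Gng11. Their means ran from 14.9 to 338 normalized counts. None of the 7 members with a mean of 1000 or more was called, with 1 at an unadjusted p below 0.05 by the Wald test of DESeq2: these were Gnai3, Gnb1, Gna13, Gng5, Gnai2, Gng2 and Gnaq, the abundant subunits of both states. For comparison, 2.4% of tested genes with such a mean were higher and 4% lower.

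The promoters of 4 of the 13 members that rose are printed. Rgs2 and Rgs17 had the smallest p-values of the RGS genes, and Gng3 had the smallest of the gamma subunit genes. Gnat2 had the smallest of the alpha subunit genes with a promoter entry, since Gnaz, with a smaller p-value, had no entry. Whether these genes share regulation was not tested. They come from RefSeq on build GRCm38.p6, whereas the reads were aligned to mm9, so their positions belong to GRCm38.p6 alone. Each runs 5′ to 3′ over 300 bases, from 250 before the start to 50 after it. Capitals mark matches on either strand to 4 motifs: TGACG, the core of the cAMP response element; TGANTCA, the AP-1 site; TAATCC, a site of OTX homeodomain factors; and ATGCAAAT, the octamer of POU factors.
Rgs2, GRCm38.p6, chr1:144004100-144004399, minus strand: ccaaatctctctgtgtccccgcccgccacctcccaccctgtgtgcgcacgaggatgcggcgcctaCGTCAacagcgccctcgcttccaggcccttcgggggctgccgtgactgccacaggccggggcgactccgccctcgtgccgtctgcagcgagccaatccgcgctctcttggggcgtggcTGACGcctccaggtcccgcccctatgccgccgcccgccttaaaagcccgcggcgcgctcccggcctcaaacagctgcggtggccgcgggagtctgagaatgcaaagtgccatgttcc
Rgs17, GRCm38.p6, chr10:5922351-5922650, minus strand: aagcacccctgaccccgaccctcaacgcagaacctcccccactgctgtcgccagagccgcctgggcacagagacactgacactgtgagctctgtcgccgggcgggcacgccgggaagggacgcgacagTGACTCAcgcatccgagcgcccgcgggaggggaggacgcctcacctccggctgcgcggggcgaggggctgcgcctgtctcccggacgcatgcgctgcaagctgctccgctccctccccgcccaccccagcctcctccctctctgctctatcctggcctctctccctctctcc
Gnat2, GRCm38.p6, chr3:108092816-108093115, plus strand: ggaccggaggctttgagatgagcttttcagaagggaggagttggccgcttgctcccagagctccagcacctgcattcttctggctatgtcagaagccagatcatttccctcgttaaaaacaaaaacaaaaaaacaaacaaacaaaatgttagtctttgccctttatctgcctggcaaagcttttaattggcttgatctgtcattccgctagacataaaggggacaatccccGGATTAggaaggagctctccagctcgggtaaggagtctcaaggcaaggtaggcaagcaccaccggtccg
Gng3, GRCm38.p6, chr19:8839197-8839496, minus strand: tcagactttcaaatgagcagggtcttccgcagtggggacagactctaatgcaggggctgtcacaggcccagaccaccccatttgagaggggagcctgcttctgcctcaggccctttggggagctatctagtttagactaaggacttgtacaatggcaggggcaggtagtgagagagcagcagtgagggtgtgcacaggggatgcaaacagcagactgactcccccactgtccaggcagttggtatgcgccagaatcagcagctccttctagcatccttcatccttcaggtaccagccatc
The Rgs2 promoter holds 2 matches to TGACG, that of Rgs17 holds 1 to TGANTCA, that of Gnat2 holds 1 to TAATCC, and that of Gng3 holds none. The same motifs lie in 20.8%, 7.81% and 7.06% of the 32851 promoters of the table, and ATGCAAAT lies in 1.74%. The 4 promoters also differ in base composition, with 33 CpG dinucleotides in Rgs2 and 27 in Rgs17 but 8 in Gnat2 and 2 in Gng3. Of the 13 members that rose 10 had an entry, with 11 promoters and a median of 22 CpG. The 35 promoters of other members had a median of 20 CpG, and all promoters a median of 7. Of the 11 promoters of risen members 4 held TGACG, 2 TGANTCA, 1 TAATCC and 1 ATGCAAAT. A match is a run of letters and not a measured binding site.

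Among RGS genes, 8 of 19 members with their anchors rose and 0 fell, with 10 higher and 0 lower at an unadjusted p below 0.05 by the Wald test of DESeq2. Of all tested genes 7.67% were called higher and 6.23% lower, and 13.2% and 8.67% at means from 10 to under 400. The median log2 fold change of the 19, whose means reached at most 418, was 2.64. Over all tested genes, whatever their mean, it was 0.02, and nothing is read from these differences. Each of the R4, R7, R12 and RZ classes held at least 1 gene that rose and none that fell. The plot of fold changes by class shows the intervals.

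The calls depended on how strictly they were made. Tested against a 2-fold change, 5 of the 13 members remained called (Rgs2, Rgs17, Rgs7bp, Gnat2 and Gng3), beside 3.84% of all tested genes higher by that rule. At an adjusted p under 0.01, 9 of the 13 remained (5.37% of all tested genes). With the adjustment restricted to means of 100 or more, only Rgs12, Rgs17 and Gng3 of the 13 were tested, and all 3 remained (5.94%). With no filter on low means (5.84%) and with centred fold changes (7.59%) all 13 remained.

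**Figure D1:**
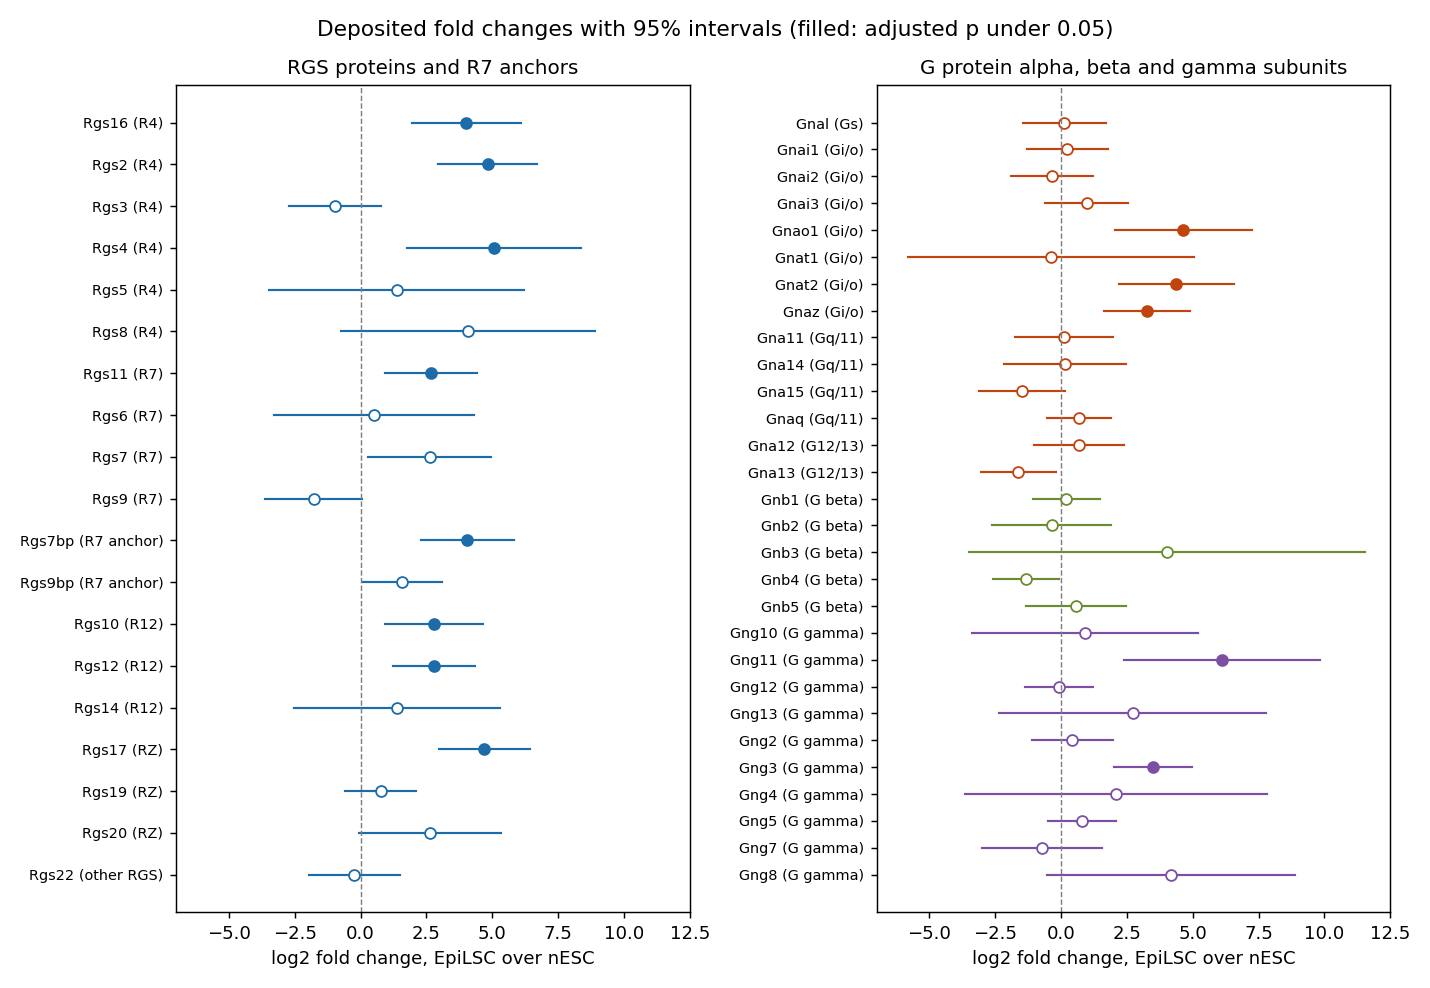
Deposited log2 fold change (EpiLSC over nESC, x axis) of each of the 48 members with its 95% interval, RGS genes and anchors on the left and G protein subunits on the right, class in brackets. Filled points have an adjusted p under 0.05; all 13 of them lie above 0, and the open points of Rgs9, Gna13, Gna15 and Gnb4 lie farthest below it.

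The R4 class holds small RGS proteins that are little more than an RGS domain. Rgs2, which acts chiefly on Gq, rose by 4.82 on the log2 scale (SE 0.96, adjusted p 1.45e-05) as given in the authors' deposited table, from an implied 5.19 normalized counts in nESC to 146 in EpiLSC. Rgs4, a regulator of Gi and Gq best known from neurons, rose by 5.06 (SE 1.69, adjusted p 0.0235) as given in the authors' deposited table. Its implied level in nESC was 0.871 normalized counts, so the size of its fold rests on few reads. Rgs16, a Gi and Gq regulator that many stimuli induce, rose by 4.01 (SE 1.06, adjusted p 0.00201) as given in the authors' deposited table, from 3.92 to 63.3. Rgs3 had the highest level per kilobase of exon of the R4 genes in nESC (26.7) and stood at -0.96 (SE 0.90) without passing as given in the authors' deposited table, with levels of 288 in nESC and 148 in EpiLSC. It shares 11.4% of its 50-base words with the transcript of Gm5763. Rgs5 (1.37, SE 2.47) and Rgs8 (4.08, SE 2.45) had means of 4.06 and 4.05 and did not pass as given in the authors' deposited table. The 3 R4 genes that rose had levels of at most 5.19 normalized counts in nESC, and Rgs3 was the R4 gene with a level above that.

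R7 proteins pair with the beta subunit Gnb5 and are held at membranes by the anchors R7BP and R9AP, encoded by Rgs7bp and Rgs9bp. Rgs11 rose by 2.69 (SE 0.89, adjusted p 0.0223) as given in the authors' deposited table, from 21.3 to 137 normalized counts. Rgs7 had a similar fold change of 2.63 but a larger error (SE 1.19, adjusted p 0.149) at a mean of 20.2 and did not pass as given in the authors' deposited table. Rgs9, the RGS protein of photoreceptors and striatal neurons, had the most negative value of all members at -1.78 (SE 0.94, adjusted p 0.262) as given in the authors' deposited table, with levels of 144 in nESC and 41.9 in EpiLSC. Rgs6 was barely detected (mean 4.16) and stood at 0.51 (SE 1.94) as given in the authors' deposited table. Both anchors had positive values. Rgs7bp rose by 4.06 (SE 0.90, adjusted p 0.000142), and Rgs9bp stood at 1.58 (SE 0.76, adjusted p 0.192), as given in the authors' deposited table. Their implied levels went from 7.25 to 121 for Rgs7bp and from 209 to 626 for Rgs9bp. Gnb5 itself did not pass, at 0.57 (SE 0.96) with a mean of 41.9 as given in the authors' deposited table.

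R12 proteins carry further domains beside the RGS domain, except the short Rgs10. Rgs12, a large scaffold that also binds Ras and Raf, rose. Its log2 fold change was 2.79 (SE 0.80, adjusted p 0.00576) as given in the authors' deposited table, with 85.6 normalized counts in nESC and 590 in EpiLSC. Rgs10, a Gi regulator studied mostly in microglia and bone, rose by 2.79 (SE 0.95, adjusted p 0.0282) as given in the authors' deposited table, from 18.7 to 130. It was the called member closest to the threshold, ahead of Rgs4. Rgs14, the third gene of the class, had a mean of 4.57 and stood at 1.38 (SE 1.99) as given in the authors' deposited table.

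RZ proteins act on Gi and on Gz, the alpha subunit encoded by Gnaz. Rgs17 had the smallest adjusted p of all members: it rose by 4.70 (SE 0.89, adjusted p 3.83e-06) as given in the authors' deposited table, from 12.7 to 331 normalized counts. Rgs19, also known as GAIP, had a higher level per kilobase in nESC (105, against 1.54 for Rgs17) and did not pass, at 0.77 (SE 0.69) as given in the authors' deposited table. Rgs20 stood at 2.64 (SE 1.37, adjusted p 0.242) with a mean of 13.8 as given in the authors' deposited table. Rgs22, which lies outside these classes, stood at -0.24 (SE 0.88) as given in the authors' deposited table, with an interval of -1.96 to 1.49 that lies within a 4-fold change either way.

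The 3 alpha subunit genes that rose belonged to the Gi/o class, which held 7 of the 14 alpha members. In that class 3 of 7 rose and 0 fell, with the same 3 at an unadjusted p below 0.05 by the Wald test of DESeq2. Of all tested genes 7.67% were called higher and 6.23% lower. With Gnas left out, only Gnal stood for the Gs class, and the difference between classes was not tested. Gnao1, the Go subunit abundant in brain, rose by 4.64 (SE 1.33, adjusted p 0.00545) as given in the authors' deposited table, from 4.47 to 112 normalized counts. Gnaz, the Gz subunit, rose by 3.27 (SE 0.83, adjusted p 0.0012) as given in the authors' deposited table, from 16.8 to 162. Gnat2, the transducin of cone photoreceptors, rose by 4.38 (SE 1.11, adjusted p 0.00122) as given in the authors' deposited table, from 2.84 to 59.0. With so low a level in nESC, the size of its fold rests on few reads. The 3 abundant Gi genes did not pass. Gnai3 stood at 0.97 (SE 0.80, interval -0.59 to 2.53), Gnai2 at -0.35 (SE 0.79, interval -1.90 to 1.21) and Gnai1 at 0.24 (SE 0.78, interval -1.30 to 1.77) as given in the authors' deposited table. For Gnai2 and Gnai1 the interval lies within a 4-fold change either way, and for Gnai3 it does not. Gnat1, the rod transducin, had a mean of 2.36 and no adjusted p.

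The other alpha subunit classes had no called gene. Of the 4 Gq/11 genes 0 were called and 0 had an unadjusted p below 0.05 by the Wald test of DESeq2. Gnaq (0.68, SE 0.62) and Gna11 (0.12, SE 0.95) had intervals within a 4-fold change either way as given in the authors' deposited table. Gna15, which couples to many receptors, stood at -1.49 (SE 0.83, adjusted p 0.305) and Gna14 at 0.14 (SE 1.18) as given in the authors' deposited table. In the G12/13 class 0 of 2 were called and 1 had an unadjusted p below 0.05 by the Wald test of DESeq2. That gene was Gna13, at -1.61 (SE 0.73, adjusted p 0.141) as given in the authors' deposited table, with 8779 normalized counts implied in nESC and 2868 in EpiLSC. It was the member closest to the threshold among those not called, followed by Rgs7. Gna12 stood at 0.67 (SE 0.87) as given in the authors' deposited table. Gnal, the Gs-class subunit of olfactory neurons, stood at 0.13 (SE 0.81) as given in the authors' deposited table, with an interval within a 4-fold change either way.

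None of the 5 beta subunit genes was called, and 1 had an unadjusted p below 0.05 by the Wald test of DESeq2, namely Gnb4 at -1.33 (SE 0.64, adjusted p 0.19) as given in the authors' deposited table. Gnb1, the main beta subunit here, stood at 0.21 (SE 0.65) with an interval of -1.07 to 1.48 as given in the authors' deposited table. Gnb2 stood at -0.36 (SE 1.15) as given in the authors' deposited table. Gnb3, a beta subunit of cones and taste cells, had a mean of 1.42 and no adjusted p.

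Of the 10 gamma subunit genes 2 rose and 0 fell, again with the same 2 at an unadjusted p below 0.05 by the Wald test of DESeq2. The shares over all tested genes were 7.67% higher and 6.23% lower. Gng3, a gamma subunit of neurons, rose by 3.50 (SE 0.76, adjusted p 9.39e-05) as given in the authors' deposited table, from 42.5 to 480 normalized counts. Of its exonic bases 24.2% overlap Bscl2 on the opposite strand, and Bscl2 had a mean of 1066 and a log2 fold change of 0.72 (adjusted p 0.672) as given in the authors' deposited table. The strand setting of the counting is not known, so reads of the 2 genes cannot be told apart there. Other called members shared at most 10.1% of their exonic bases with another gene (Rgs16 with Gm28513, whose mean was 1.02). Gng11, whose product carries a farnesyl rather than a geranylgeranyl lipid, had the largest value of all members at 6.12 (SE 1.89, adjusted p 0.0122) as given in the authors' deposited table. Its implied level in nESC was 0.49, so that fold too rests on few reads. The abundant genes Gng5 (0.80, SE 0.66), Gng2 (0.44, SE 0.78) and Gng12 (-0.08, SE 0.66) did not pass as given in the authors' deposited table, with the intervals of Gng2 and Gng12 within a 4-fold change either way. Gng8 (4.16, SE 2.40) and Gng10 (0.92, SE 2.19) had means of 4.74 and 4.62 as given in the authors' deposited table and did not pass. For Gng10, 72.0% of the exonic bases also belong to Gm20503 on the same strand, so its count is uncertain. Gng7 stood at -0.73 (SE 1.16) as given in the authors' deposited table, and Gng4 and Gng13, with means of 2.16 and 3.09, had no adjusted p.

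**Figure D2:**
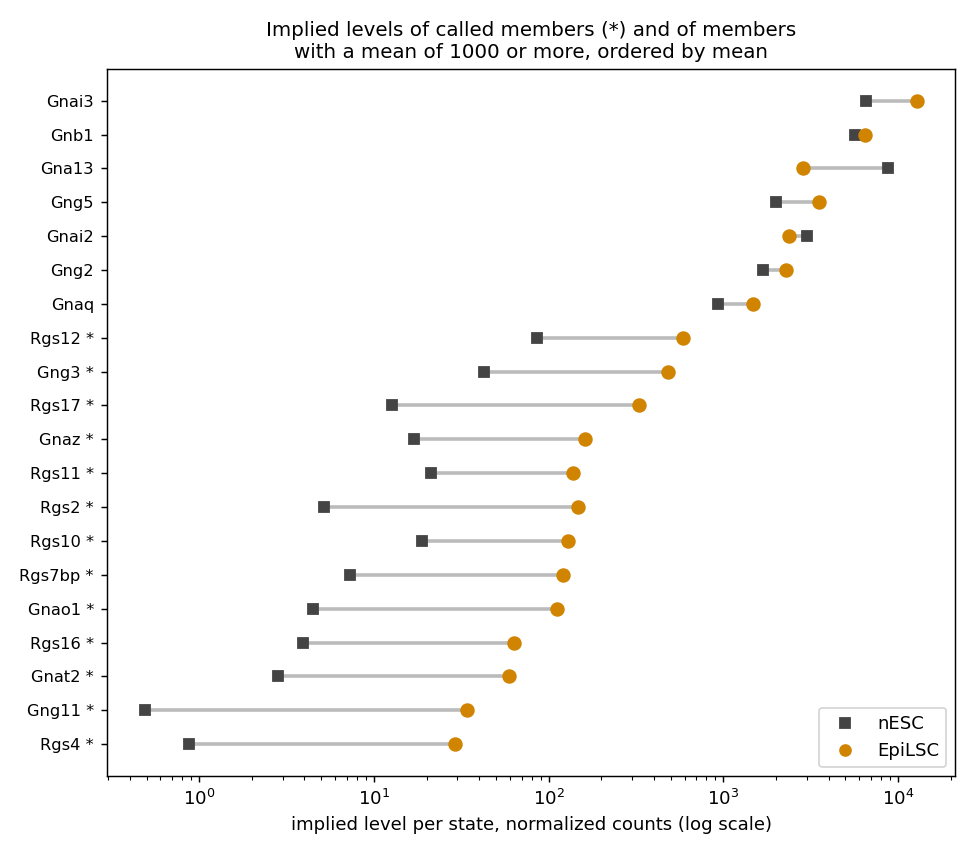
Implied level in normalized counts (log x axis) in nESC (squares) and EpiLSC (circles) for the 13 members called higher, marked with an asterisk, and the 7 members with a mean of 1000 or more; levels were computed from means and fold changes and carry no error bars. The called members have the lower mean counts, and their nESC levels run from 0.49 (Gng11) to 85.6 (Rgs12).

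Mean level and call went together within the family. All 13 members that rose were among the 24 with a mean of at least 10 and under 400, and the other 11 of these were not called. Of the 14 members with a mean of 400 or more 0 were called and 3 had an unadjusted p below 0.05 by the Wald test of DESeq2, counting Gna13, Gnb4 and Rgs9bp. Among all tested genes, 13.2% of those with a mean from 10 to under 400 were higher and 8.67% lower, against 3.61% and 5.04% of those with 400 or more. The limits of 10 and 400 were set after the values were seen. Of the 10 members with a mean under 10, 4 had no adjusted p and 6 were not called, and 0 had an unadjusted p below 0.05 by the Wald test of DESeq2. The SE of members ran from 0.62 (Gnaq) to 3.83 (Gnb3). Members with a mean under 10 had an SE of at least 1.94.

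**Figure D3:**
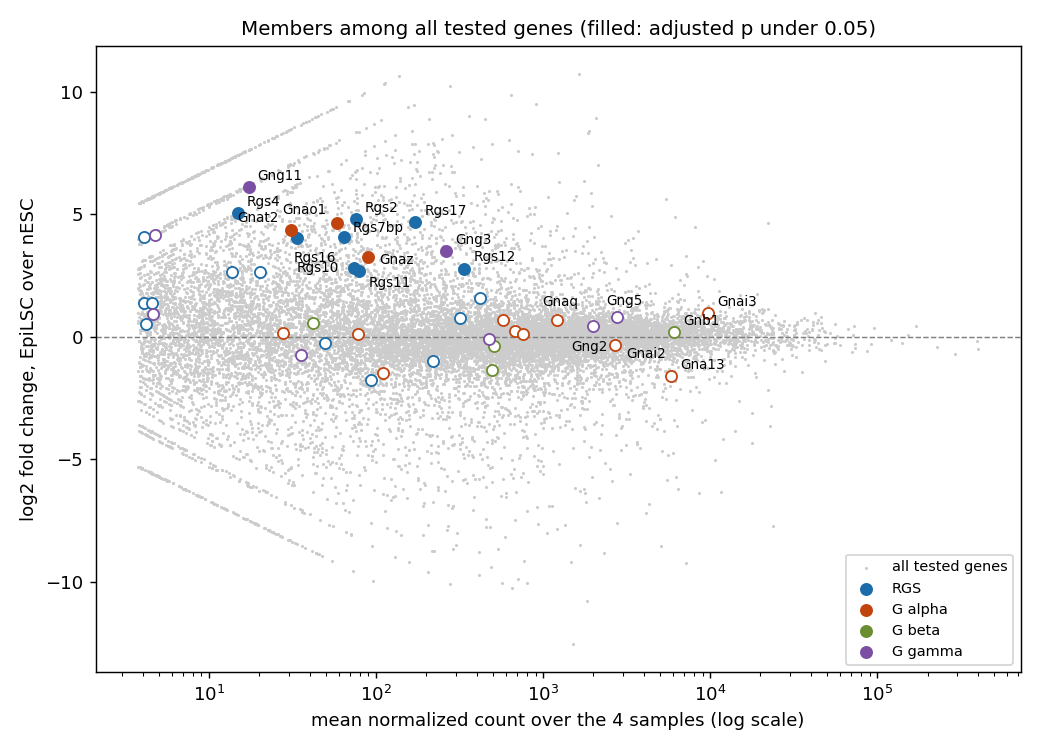
Mean normalized count over the 4 samples (log x axis) against deposited log2 fold change (y axis) for all genes with an adjusted p (grey) and for the members by family, filled where the adjusted p is under 0.05. Filled points lie at means between 14.9 and 338 and at positive values, while members with a mean of 1000 or more lie between -1.61 (Gna13) and 0.97 (Gnai3).

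Levels per kilobase of annotated exon allow the members to be set beside each other. Per kilobase, Gnai3 made up 40.8% of the summed alpha subunit level in nESC and 65.6% in EpiLSC. Gna13 went from 27.8% to 7.45% and Gnai2 from 16.2% to 10.5%, although none of these 3 genes was called. The Gi/o class as a whole held 61.1% in nESC and 81.2% in EpiLSC, with Gnas left out of the sum. Gnb1 held 85.0% and 90.0% of the beta subunit level per kilobase. Gng5 held 57.8% and 56.6% of the gamma subunit level, and Gng3 went from 2.06% to 13.05%. Of the 3 alpha subunit genes that rose, Gnaz reached 0.75%, Gnat2 0.329% and Gnao1 0.169% in EpiLSC. The sums carry no error, and the shares depend on exon annotation that may differ from that of the authors.

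The summed level per kilobase of the RGS family was spread over more genes in EpiLSC. In nESC Rgs19 held 45.4%, the anchor gene Rgs9bp 13.8%, Rgs3 11.6% and Rgs9 9.77%. In EpiLSC Rgs19 held 28.4%, Rgs9bp 15.1%, Rgs10 12.0%, Rgs12 11.1%, Rgs2 6.42% and Rgs17 6.33%. The summed RGS level per kilobase was 230 normalized counts in nESC and 629 in EpiLSC, a ratio of 2.73. The summed alpha subunit level was 4926 and 5994, a ratio of 1.22. The RGS sum, anchors included, was 0.0468 of the alpha subunit sum, Gnas left out, in nESC and 0.105 in EpiLSC.

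**Figure D4:**
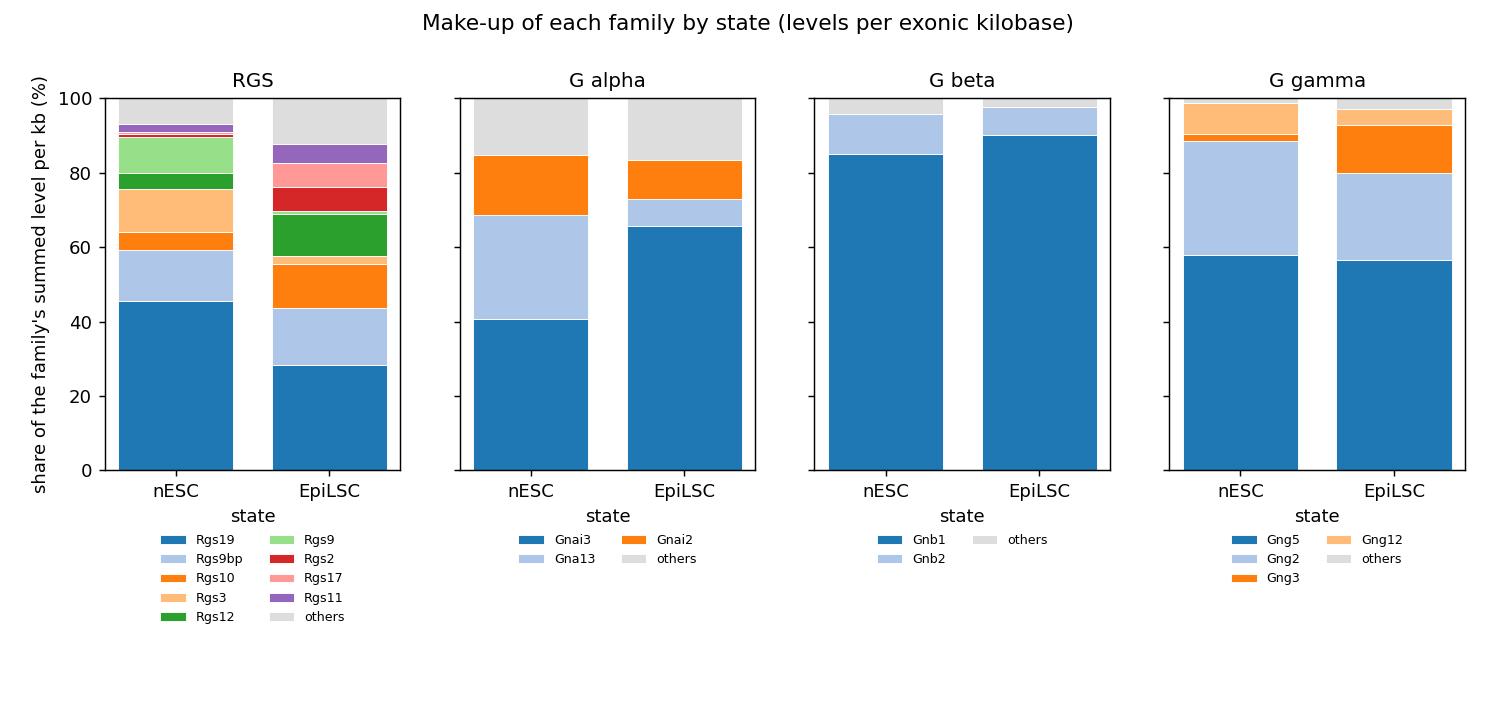
Share of each family's summed level per exonic kilobase (y axis, percent) held by its genes in nESC and EpiLSC; genes that reach 5% in neither state are pooled as others, and no error bars can be given. Rgs19 goes from 45.4% to 28.4% of the RGS sum, Gnai3 goes from 40.8% to 65.6% of the alpha sum, and Gnb1 and Gng5 lead in both states.

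Several members lie next to a relative in the genome. Gnat2 and Gnai3 are adjacent on opposite strands: Gnat2 rose by 4.38 (SE 1.11) while Gnai3 stood at 0.97 (SE 0.80) without passing, as given in the authors' deposited table. Rgs16 and Rgs8 are adjacent on the same strand, with 4.01 (SE 1.06) and 4.08 (SE 2.45) as given in the authors' deposited table, and only Rgs16 passed. Rgs4 rose by 5.06 (SE 1.69) beside Rgs5 at 1.37 (SE 2.47) as given in the authors' deposited table. Rgs2 is next to Rgs13, followed by Rgs1, Rgs21 and Rgs18, the 4 RGS genes that were not analysed here. The pairs Gna15 with Gna11, Gnaq with Gna14, Rgs9 with Gna13 and Gnai2 with Gnat1 held no called gene, and 1 of these genes, Gna13, had an unadjusted p below 0.05 by the Wald test of DESeq2. The difference between neighbours was not tested.

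Markers of other cell types were examined beside these results, since Gnao1, Gng3, Rgs4 and Rgs7bp are known from neurons. To set beside their counts, 7.67% of all tested genes were called higher and 6.23% lower. At means from 10 to under 400 these shares were 13.2% and 8.67%. Of 6 neural markers 5 had a row and 2 rose, Neurod1 (4.10, SE 0.93) and Map2 (1.91, SE 0.66) as given in the authors' deposited table. Their summed level was 780 normalized counts in nESC and 1896 in EpiLSC, most of it from Map2 and Tubb3, while Sox1 stood at -1.98 (SE 1.29) and Pax6 at 2.93 (SE 1.46) as given in the authors' deposited table. Of 6 fibroblast markers 5 had a row and 2 rose, Thy1 and Mmp2, with a summed level of 99.4 in nESC and 414 in EpiLSC. Col1a1 had implied levels of 3.09 and 9.04. The part of such cells in the rises of members was not tested. Of 5 primitive endoderm markers 4 had an adjusted p and 1 rose, Dab2 (3.35, SE 0.87), while Pdgfra stood at -2.38 (SE 1.03), Gata4 at 0.67 (SE 1.16), Sox17 at 0.97 (SE 1.71) and Gata6 at -0.68 (SE 2.30), as given in the authors' deposited table. Of 4 trophectoderm markers Eomes rose (3.18, SE 0.90) and Cdx2 fell (-5.55, SE 1.42) as given in the authors' deposited table, and Elf5 and Hand1 had no adjusted p. Of 4 mesoderm markers Mixl1 rose (2.85, SE 1.01), Kdr fell (-4.06, SE 0.99) and T stood at 0.02 (SE 1.04) as given in the authors' deposited table, and Mesp1 had no row. Of 4 blood and endothelium markers Pecam1 fell (-6.17, SE 0.67) and Ptprc stood at 2.43 (SE 1.65) as given in the authors' deposited table, Hba-a1 had no adjusted p and Cdh5 had no row.

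Genes around the G protein cycle were followed in 13 lists of 199 genes, of which 146 had an adjusted p. Of these 31 rose and 10 fell as given in the authors' deposited table, with a median log2 fold change of 0.55. Among all tested genes 7.67% were called higher and 6.23% lower, the shares to set beside each list count below. With a mean from 10 to under 400 they were 13.2% and 8.67%. The lists were chosen with earlier results of these data known, so their counts are descriptions and were not tested. On the cAMP branch, 3 of 9 adenylyl cyclase genes rose and 0 fell, with 4 and 0 at an unadjusted p below 0.05 by the Wald test of DESeq2. Adcy7 rose by 4.53 (SE 0.84) and Adcy6 by 2.57 (SE 0.80) as given in the authors' deposited table. Of 14 phosphodiesterase genes, whose products break down cAMP, 4 rose and 1 fell: Pde3b rose by 4.04 (SE 0.66), Pde4b rose by 3.99 (SE 0.78) and Pde8a fell by 5.54 (SE 0.65) as given in the authors' deposited table. Of 6 protein kinase A genes only the regulatory subunit gene Prkar2b was called, with a rise of 3.74 (SE 0.73) as given in the authors' deposited table.

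On the Gq branch, 5 of 14 genes for phospholipases C beta and diacylglycerol kinases rose and 0 fell, with 5 and 1 at an unadjusted p below 0.05 by the Wald test of DESeq2. The diacylglycerol kinase genes Dgkb and Dgki rose by 3.61 (SE 0.92) and 3.22 (SE 0.82) as given in the authors' deposited table. Of 10 protein kinase C and D genes 3 rose and 0 fell, with 3 and 1 at an unadjusted p below 0.05 by the Wald test of DESeq2, led by Prkcb (4.04, SE 0.75) and Prkd1 (4.53, SE 0.86) as given in the authors' deposited table. Among other partners, 1 of 9 receptor kinase and arrestin genes rose and 0 fell. It was Arrb1, a beta-arrestin that binds active receptors, at 4.16 (SE 0.67) as given in the authors' deposited table. Of 10 genes for G12/13 and Gq exchange factors 1 rose and 0 fell, namely Trio at 3.82 (SE 0.71) as given in the authors' deposited table. The median log2 fold change of these 10 was -0.50. Both lists had 1 and 0 at an unadjusted p below 0.05 by the Wald test of DESeq2. Kcnj3, which encodes a subunit of potassium channels opened by beta-gamma dimers, rose by 5.28 (SE 0.77) as given in the authors' deposited table. The other subunit genes of that list were near the floor. Kcnj9 stood at 2.59 (SE 1.79) with a mean of 6.21 and did not pass. Kcnj5 and Kcnj6, with means of 0.94 and 1.28, had no adjusted p. Of 12 genes for G protein chaperones and nucleotide exchange or dissociation factors 1 rose and 1 fell. Gpsm1, a guanine nucleotide dissociation inhibitor of Gi, rose by 3.83 (SE 1.08). Pdcl2, a phosducin-like gene, fell by 6.03 (SE 0.86) as given in the authors' deposited table.

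Receptor genes changed in both directions. Of 10 lysophospholipid receptor genes 1 rose and 3 fell: Lpar4 rose by 3.44 (SE 0.91), and S1pr1 fell by 6.91 (SE 0.96) and Lpar1 fell by 3.05 (SE 0.65) as given in the authors' deposited table. Of 19 genes listed as chemokine or Gi-coupled receptors 3 rose and 3 fell. Upwards went the cannabinoid receptor gene Cnr1 (5.49, SE 0.83) and Oprk1 (4.54, SE 1.28), among others, as given in the authors' deposited table. Downwards went the chemokine receptor gene Ackr3 (-4.23, SE 0.86) and Sstr2 (-5.94, SE 1.49), among others, as given in the authors' deposited table. Of 16 Gq-coupled receptor genes 5 rose and 0 fell, with 5 and 0 at an unadjusted p below 0.05 by the Wald test of DESeq2, with Htr2c at 7.75 (SE 1.88) and Hrh1 at 4.75 (SE 1.38) as given in the authors' deposited table. Of 15 Gs-coupled receptor genes 2 rose and 2 fell, with Htr7 at 8.82 (SE 1.85), Pth1r at 6.45 (SE 2.37), Adrb3 at -3.75 (SE 0.75) and Mc5r at -4.43 (SE 1.63) as given in the authors' deposited table. The levels of Htr2c, Hrh1, Htr7, Pth1r and Oprk1 in nESC were all under 2 normalized counts.

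**Figure D5:**
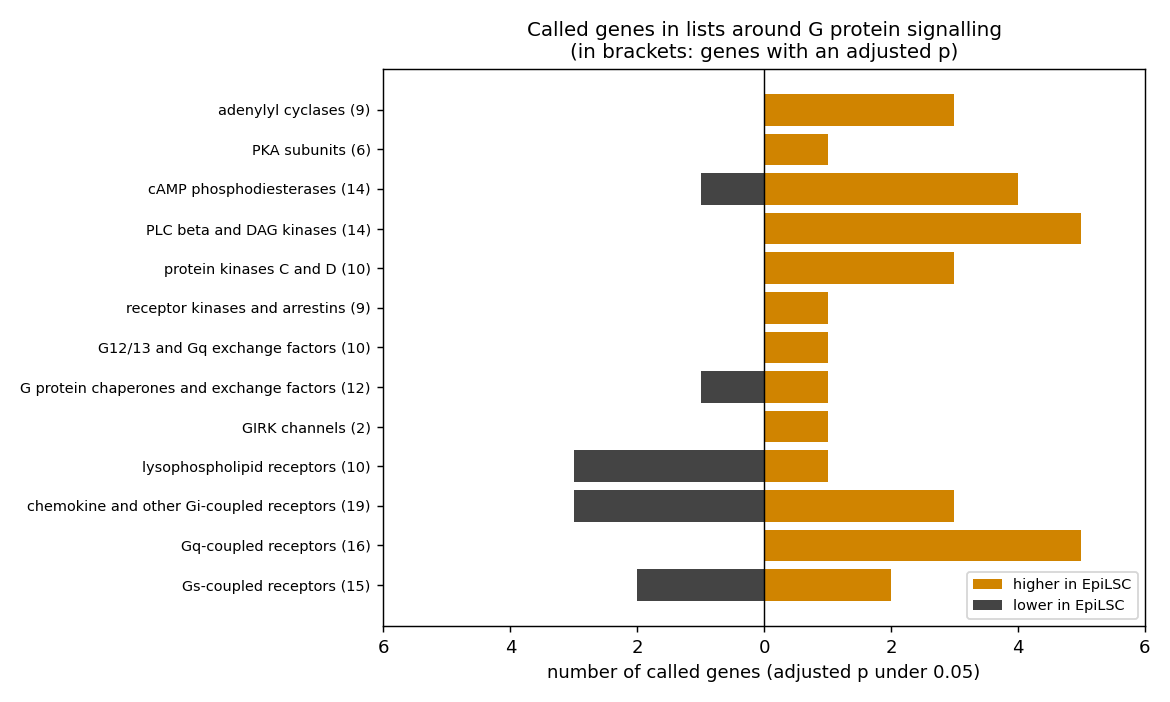
Number of genes called higher (right) or lower (left) in EpiLSC (x axis) in each of 13 lists around G protein signalling, with the number of genes that have an adjusted p in brackets. Called genes of the enzyme and channel lists lie to the right apart from 1 phosphodiesterase gene and 1 chaperone-list gene to the left, and lower calls are most numerous in 2 of the receptor lists, with 3 each.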

How the data were processed

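The 1 file was the authors' comparison of 2 nESC and 2 EpiLSC samples. Per the submitters' processing notes, TopHat2, HTSeq and DESeq2 1.8.2 were used with build mm9. Annotation, strand setting and design formula were not given in the sources used here. Deposited means are a signal, counts divided by size factors and averaged over samples. Per the file headers, log2 fold changes, their standard errors, a Wald score, a p-value and an adjusted p-value were made by the authors. The score, p and adjusted p were recomputed from the deposited values, with largest gaps of 5.9e-14, 4.4e-15 and 2.3e-15. An adjusted p is missing for 3935 of 20296 genes, whose means reach 3.74. Depth per sample is unknown, and the SE gives the precision: its median was 0.68 at means of 1000 or more and 1.30 below 100.

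Names, exons and overlaps came from GENCODE M21 (GRCm38) by unversioned ID, and 20167 IDs matched. Promoters of 36 members came from RefSeq. Implied levels were set so that both states average to the deposited mean and their ratio equals the deposited fold. Intervals are 95% normal intervals. Shared words are the 50-base words of a member's transcripts also found in another gene's. The recomputed calls were tested on data simulated with normal errors of the deposited SE, so whether those SEs are right was not tested. Python 3.11.15, pandas 2.3.3 and scipy 1.17.1 were used.

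The members and gene lists were chosen with earlier results of these data known. Named are all called members, uncalled members with a mean of 1000 or more or near the threshold, neighbouring members, and up to 2 called genes per list and direction with the smallest p. Other members and the motifs were named after their values were seen. Protein sequences, planned for display, were not used here, and promoters are shown instead. A marker list is not reported here. Alternatives were no filter, a mean of 100 or more, a test against a 2-fold change, an adjusted p under 0.01 and median-centred fold changes. Replicates were not given singly. The p-values rest on these 4 samples alone, and the 2 samples of a state came from different lines. Whether the authors' model held the line as a term is not known.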

Additional observations from a re-analysis of the deposited data

How the results depend on the processing

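With no filter on low means and with fold changes centred on their median, all 13 member calls remained. Their direction could not change, since each alternative reuses the deposited fold changes, less 0.02 where they were centred. Tested against a 2-fold change, 5 members kept their calls, Rgs2, Rgs17, Rgs7bp, Gnat2 and Gng3, which left 3 RGS and anchor genes, 1 alpha subunit gene and 1 gamma subunit gene. The other 8 lost theirs, with adjusted p from 0.0615 (Rgs16, range 0.00201 to 0.0615 over its alternatives) to 0.472 (Rgs10, range 0.0282 to 0.472). At an adjusted p under 0.01, 5 RGS and anchor genes, the 3 alpha subunit genes and 1 gamma subunit gene were left. Where only means of 100 or more were kept, 2 RGS genes (Rgs12 and Rgs17), 0 alpha subunit genes and 1 gamma subunit gene (Gng3) were called. In that filter 8 alpha subunit genes were tested and 1 had an unadjusted p below 0.05 by the Wald test of DESeq2; the 3 called otherwise have lower means and were not tested. In the 13 pathway lists the 41 calls became 20 with a mean of 100 or more and 21 against a 2-fold change. No paired analysis was possible because the values of single samples were not analysed here, and for the same reason no sample could be left out. The 10 members with a mean under 10 had the lowest precision, with an SE of at least 1.94.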

Other observations

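Several members are known from sensory cells. The cone transducin gene Gnat2 rose, and the anchor gene Rgs9bp had the second highest share of the RGS family per kilobase in both states, at 13.8% and 15.1%. Its product is known for tethering the product of Rgs9 in photoreceptors, and the authors' deposited table gave the 2 genes opposite signs, 1.58 (SE 0.76) for Rgs9bp and -1.78 (SE 0.94) for Rgs9, neither of which passed. The difference between them was not tested. Other members of sensory cells were near the floor, with means of 2.36 for Gnat1, 1.42 for Gnb3 and 3.09 for Gng13, of whose exonic bases 51.6% overlap Chtf18 on the opposite strand. Gnal, of olfactory neurons, stood at an implied 74.1 (nESC) and 81.1 (EpiLSC) normalized counts, and 7.63% of its exonic bases overlap Mppe1 on the opposite strand, which stood at -2.62 with an adjusted p of 0.00516.

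The RZ regulator Rgs17 and its substrate gene Gnaz both rose, by 4.70 (SE 0.89) and 3.27 (SE 0.83) as given in the authors' deposited table. The other RZ genes, Rgs19 (0.77, SE 0.69) and Rgs20 (2.64, SE 1.37), did not pass. Nor did the Gi genes Gnai1 (0.24, SE 0.78), Gnai2 (-0.35, SE 0.79) and Gnai3 (0.97, SE 0.80). Whether regulators and substrates changed together was not tested. Of the R7 group, Rgs11 and Rgs7bp rose, and their partner gene Gnb5 stood at 0.57 (SE 0.96) as given in the authors' deposited table.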
